A study of Mus musculus with 6 samples.

Results

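The 91 genes described here encode the protein part of the cytosolic ribosome. They are the protein-coding genes of both deposited tables whose GENCODE vM21 name starts with Rpl (large subunit) or Rps (small subunit), with the S6 kinases (names starting Rps6k) and Rps19bp1 left out. By this rule 57 large-subunit and 34 small-subunit genes were taken from 55450 rows. Their expression was followed in mouse Th17 cells, helper T cells that make interleukin 17, after forced expression of ADAR2. ADAR2 is an enzyme that converts adenosine to inosine in double-stranded RNA.

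Naive CD4+ T cells of 2 wild-type mice aged 8 to 12 weeks were activated through CD3 and CD28 with TGF-beta at 0.1 ng/mL and IL-6 at 20 ng/mL. At 24 h they received a murine stem cell virus (MSCV) retrovirus, and they were kept with TGF-beta at 0.3 ng/mL and IL-6 at 20 ng/mL until 72 h. The virus carried active ADAR2 (ADAR2 WT), the enzymatically dead ADAR2 E396A, or no insert (empty vector), with 2 libraries in each group, 1 from each mouse, here called donor B and donor A. All groups thus share activation, polarization and retroviral infection. The study asked how cells with either construct differ from empty-vector cells of the same mouse. Whether transduced cells were sorted before RNA was taken is not given in the sources used here. Which library belonged to which donor was read from the statistics the authors deposited, and which mouse is called B is arbitrary.

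Each ribosome holds 1 copy of most of these proteins, and the cell matches their synthesis to that of ribosomal RNA. Most of their transcripts begin with a run of pyrimidines at the 5′ end, the terminal oligopyrimidine or TOP motif, through which the kinase mTOR and the RNA-binding protein Larp1 set their translation and stability together. Activated T cells enlarge and build many ribosomes before they divide. Many of the genes also carry small nucleolar RNAs (snoRNAs), which guide the modification of ribosomal RNA, inside their introns.

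The TOP run lies at the transcription start, so the starts of 6 members are shown to let the motif be seen. For each subunit they are the 3 genes with the smallest p-value between donors that had a run of at least 8 pyrimidines near the start. The sequences are RefSeq windows on GRCm38.p6, from 50 bases before to 30 bases after the annotated start, 5′ to 3′, with the pyrimidine run in capitals.
Rpl35a: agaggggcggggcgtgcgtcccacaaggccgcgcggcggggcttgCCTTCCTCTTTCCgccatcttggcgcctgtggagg
Rpl27a: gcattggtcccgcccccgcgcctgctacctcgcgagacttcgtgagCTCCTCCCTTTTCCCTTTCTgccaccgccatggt
Rpl18: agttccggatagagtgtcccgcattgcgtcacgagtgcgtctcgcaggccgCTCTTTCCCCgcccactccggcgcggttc
Rps12: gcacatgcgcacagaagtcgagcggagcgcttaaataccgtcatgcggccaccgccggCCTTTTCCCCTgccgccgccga
Rps15a: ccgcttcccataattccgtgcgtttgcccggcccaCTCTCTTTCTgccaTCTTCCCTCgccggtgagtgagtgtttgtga
Rps18: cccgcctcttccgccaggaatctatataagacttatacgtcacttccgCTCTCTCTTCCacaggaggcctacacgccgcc
The first 3 are large-subunit genes, at chr16:33056432-33056511 (plus strand) for Rpl35a, chr7:109519145-109519224 (plus strand) for Rpl27a and chr7:45718021-45718100 (plus strand) for Rpl18. The other 3 are small-subunit genes, at chr10:23787180-23787259 (minus strand) for Rps12, chr7:118116118-118116197 (minus strand) for Rps15a and chr17:33955636-33955715 (minus strand) for Rps18. Rpl27a had the longest run of the 6, 20 pyrimidines, and Rps15a had a second, shorter run at its annotated start. Of the 91 members 65 had a window in the RefSeq table, 77 windows in all. At least 10 pyrimidines in a row lay within 10 bases before to 30 after the start in 26.0% of these windows. The share was 6.22% over all 32851 windows of the table. Over the whole windows, which reach 250 bases before and 50 after the start, CCGGAAG on either strand was found in 35.1% of the members' windows and 8.86% of all. CTTTCC on either strand was found in 50.6% and 26.6%, and TATAA in 23.4% and 24.9%. A match is only a run of letters, and the annotated starts were not mapped in these cells.

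Large-subunit transcripts spanned a wide range of levels. Levels are given as normalized counts per kilobase of exon, averaged over the 6 libraries (SD, n = 6). The highest was Rplp1 at 47099 ± 6151, followed by Rplp0 at 33794 ± 2811. Both encode proteins of the stalk that recruits the elongation factors, and the third stalk gene, Rplp2, had 13725 ± 1475. Next came Rpl26 at 24485 ± 3071, Rpl36 at 22450.5 ± 3159 and Rpl4, whose protein lines the exit tunnel, at 20765 ± 2474. Their spreads overlapped, but Rpl26 stood above Rpl36, and Rpl36 above Rpl4, in 6 of 6 libraries. Rpl5 and Rpl11, which enter the ribosome with 5S RNA and also bind the p53 regulator Mdm2, stood at 6629 ± 854 and 3069 ± 346.

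Small-subunit transcripts were led by Rps23, a protein of the decoding centre, at 26346 ± 3268 normalized counts per kilobase. Rpsa, also known as the laminin receptor, had 16752 ± 1802. Rps3a1 had 15118 ± 1677 and Rps15 13243 ± 1808, and Rpsa stood above Rps3a1 in 6 of 6 libraries although their spreads overlapped. Rps6, the substrate of the S6 kinases, had 10695 ± 1509.6. Among the 77 members averaging 1000 normalized counts or more the highest level was 77.0 times the lowest in the large subunit (46 genes) and 20.0 times in the small subunit (31 genes). With the longest transcript as the length, Rpl26 stood above Rplp1 at 53815, against 47099, so the order depends on the length used.

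**Figure D1:**
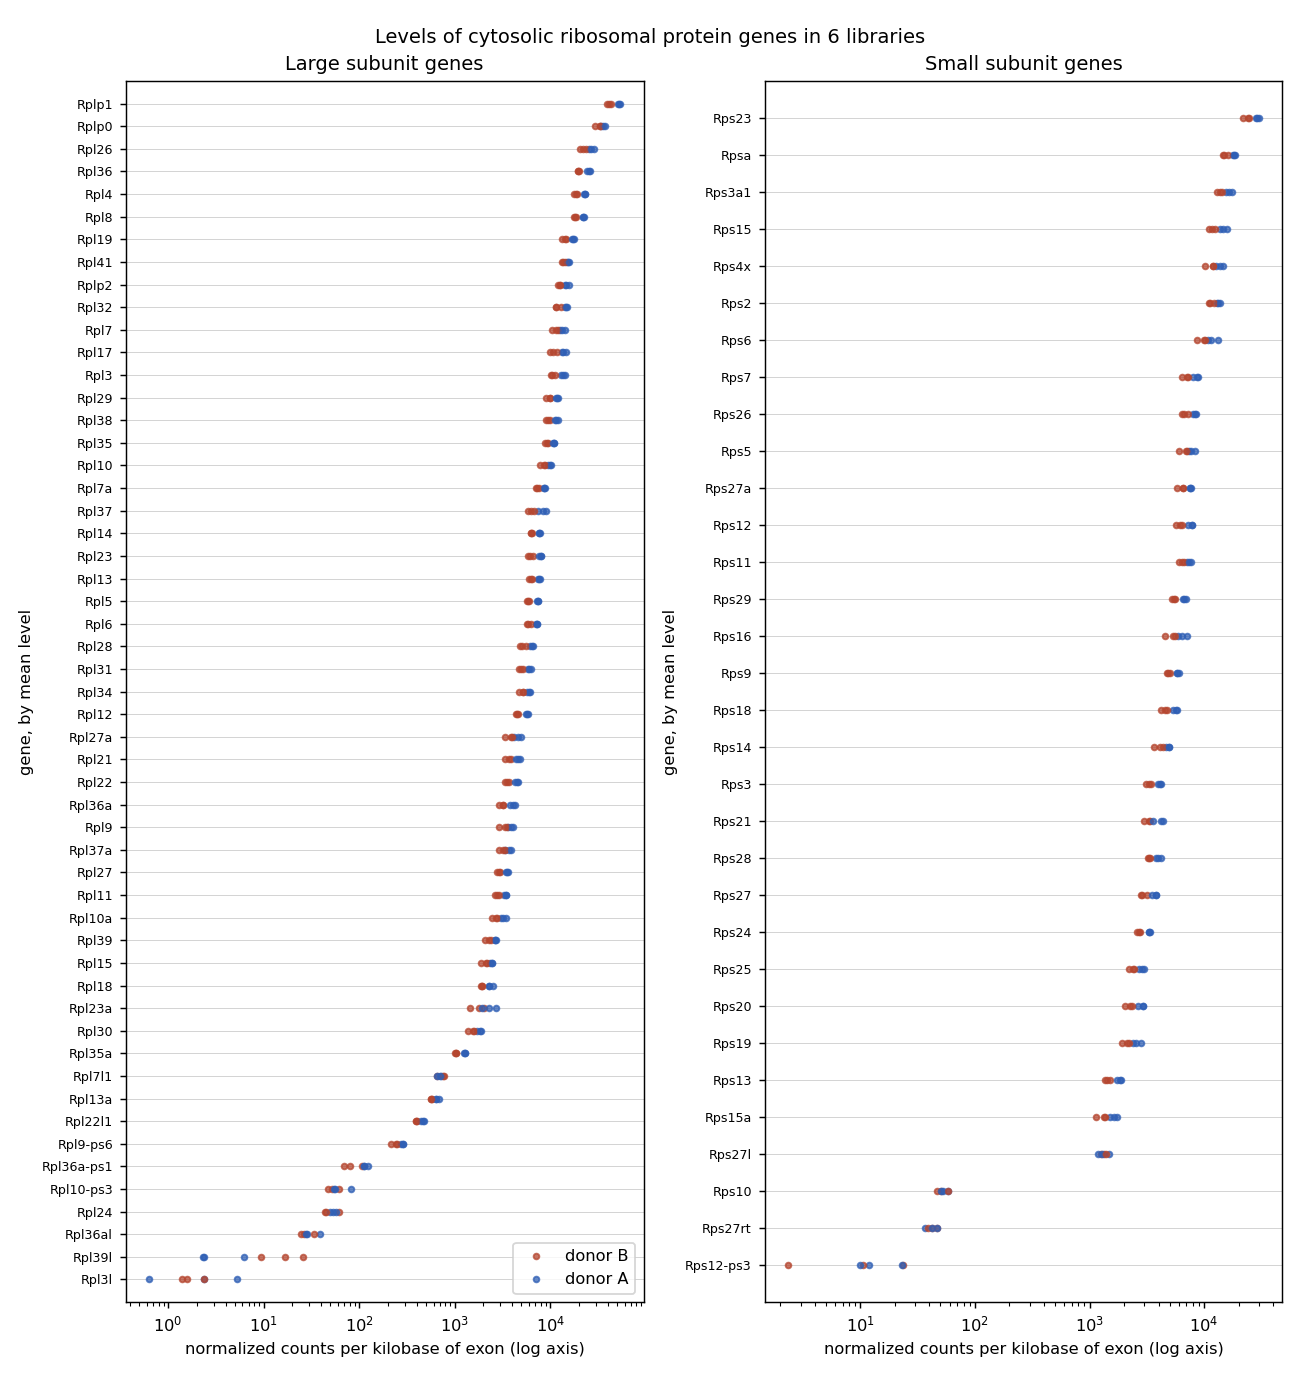
Normalized counts per kilobase of exon (log axis) of large-subunit genes (left) and small-subunit genes (right), ordered by mean; each point is 1 of 6 libraries, coloured by donor, and genes with a mean of 1 or less and a few others are not drawn. Rplp1 and Rps23 lead, and for most genes the donor B points lie left of the donor A points.

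The low end held pseudogene-like copies, tissue-specific paralogs and genes that share exons with another gene. Rpl3l, the muscle paralog of Rpl3, had 1 to 9 reads per library and Rpl10l, the testis paralog of Rpl10, had 0 to 1. Rpl9-ps1 and Rpl36-ps4 had 0 reads in each library, which allows up to 3 reads. These 4 large-subunit genes failed the filter on low counts, so 87 members were tested. Rpl22l1 reached 10.8% of the level of its partner Rpl22, an RNA-binding protein required for alpha-beta T cell development in mice. Rps27l reached 39.7% of Rps27, Rpl7l1 5.71% of Rpl7, Rpl36al 0.838% of Rpl36a and Rpl39l 0.425% of Rpl39. Rpl24, Rps10 and Rpl13a are parts of every cytosolic ribosome. Rpl24 and Rps10 were listed far below most others, and Rpl13a was the lowest of the 77 members averaging 1000 normalized counts or more. All share exonic bases with another annotated gene. Rpl24 had 51.7 ± 6.84 normalized counts per kilobase and shares 47.0% of its exonic bases with Gm28037, and Rps10, at 52.9 ± 4.74, shares 28.7% with Gm15420 and RPS10-NUDT3. Rpl13a, which in human monocytes also joins the translation-silencing GAIT complex, had 611 ± 48.9 and shares 35.4%. In all, 12 members share more than 20% of their exonic bases with another gene. Annotated pseudogenes, 292 in total, are named after 60 members. Sharing members were not all low: Rpl35 shares 66.2% at 10003 normalized counts per kilobase and Rpl5 26.7% at 6629. Whether reads were split or dropped in counting was not tested.

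Between 16496328 and 21897166 reads were assigned to genes per library, and the noncoding gene Gm26917 alone took 8.68 to 10.5% of them. Adarb1, the gene of ADAR2, had 18999 normalized counts in donor B and 18422 in donor A with ADAR2 WT, 14919.9 and 15644 with ADAR2 E396A, and 3333 and 3672 with the empty vector. It was higher with either construct than with the empty vector in both donors. Summed markers of Th17 and CD4 T cells (8 genes) ran between 34583 and 82214 normalized counts. Those of CD8 and NK cells stood at 148 to 177, of B cells at 6.80 to 40.4, of stromal cells at 8.87 to 20.4, of myeloid cells at 1.15 to 10.7 and of erythroid cells at 0 to 2.31. Ncr1 and Ms4a1 were at 0 in every library.

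The members together took 5.10% of assigned reads in donor B and 6.16% in donor A with ADAR2 WT, 5.55% and 6.50% with ADAR2 E396A, and 5.37% and 6.42% with the empty vector. Donor B lay below donor A in each of the 3 groups and the donors did not overlap. The 95% Wilson interval of each share, which covers counting error only, was at most 0.022 percentage points wide. The share averaged 5.34 ± 0.227% in donor B and 6.36 ± 0.177% in donor A (SD, n = 3 each). The large subunit had 1.62 to 1.68 times the reads of the small subunit in every library.

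**Figure D2:**
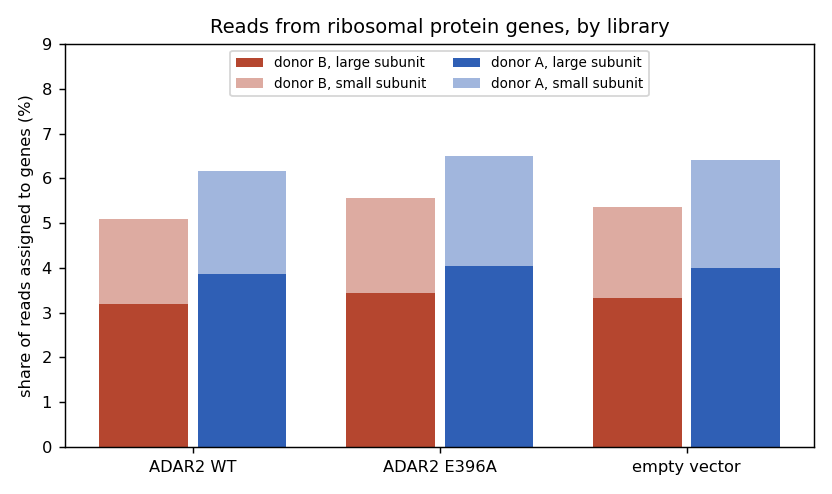
Share of reads assigned to genes (%) that came from large-subunit (dark) and small-subunit (light) genes, 1 bar per library, grouped by construct with donor B left of donor A. Totals run from 5.10 to 5.55% in donor B and from 6.16 to 6.50% in donor A.

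With ADAR2 WT, 1 ribosomal protein gene passed the test against the empty vector. It was Rpl23a, which rose, and 0.816% of all 14958 genes tested passed in this comparison (0.441% higher). The other 86 members did not pass, and most stood slightly below the empty vector. Here, as in every test below, limma was fitted to log2(normalized count + 1) of all genes with donor as a term, and adjusted p-values below 0.05 were called. The log2 fold change was negative for 66 of 87 members, against 50.4% of all genes, and negative within both donors for 56 of 87, against 31.5% of all genes. At an unadjusted p below 0.05 stood 21 members, 18 of them lower, against 14.1% of all genes (7.11% lower). The median log2 fold change was -0.05 over 53 large-subunit genes and -0.10 over 34 small-subunit genes, against 0.00 over all genes. In bulk RNA, less RNA per cell and fewer cells of a kind cannot be told apart. Fitted to the 4 libraries of this comparison alone, limma called 8 members, Rpl23a higher and Rps16, Rps6, Rps19, Rps15a, Rps4x, Rpl27a and Rpl37a lower, when 8.57% of 14430 genes passed. With 1 library left out it called 5 members without ADAR2 E396A of donor A (6.59% of all genes passed), 8 without ADAR2 E396A of donor B (8.22%), 3 without the empty vector of donor B (5.03%) and 0 without any of the other 3 (at most 0.154%). The member counts moved with these shares of all genes. Of 8 Th17 and CD4 T cell markers none passed in this comparison, and the median log2 fold change of the 8 was -0.22. With ADAR2 WT 6 of them were lower in both donors, and 2, Il17a and Il17f, were higher in both. Il17a had 17878 against 9279 with the empty vector in donor B and 6602 against 2437 in donor A. The summed markers were higher with ADAR2 WT as well (64291 against 52828 in donor B, 42145 against 41117 in donor A). The part of the markers in the members' values was not tested.

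Rpl23a encodes a large-subunit protein at the mouth of the exit tunnel, where targeting factors dock on the nascent chain. It had 1702 in donor B and 2279.6 in donor A with ADAR2 WT, 1508 and 1947 with ADAR2 E396A, and 1239 and 1623 with the empty vector, as normalized counts. In both donors the order was ADAR2 WT, then ADAR2 E396A, then empty vector, and donor B lay below donor A in each group. ADAR2 WT exceeded the empty vector by a log2 of 0.46 in donor B and 0.49 in donor A (log2 0.47, SE 0.07, adjusted p 0.0331, limma). ADAR2 E396A exceeded the empty vector by a log2 of 0.27 (SE 0.07, limma adjusted p 0.999), and ADAR2 WT exceeded ADAR2 E396A by 0.20 (SE 0.07, limma adjusted p 0.298), neither of which passed. The authors' deposited table for ADAR2 WT gives 0.48 (SE 0.121, DESeq2 adjusted p 0.0090) for Rpl23a once turned to construct over empty vector. Rpl23a is the only member called there of 84 with an adjusted p, when 196 of 11207 genes were called in all.

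Rpl23a lies on the minus strand of chromosome 11, from 78180932 to 78183584 (mm10), and shares 62.3% of its exonic bases with Snord42b and with Tlcd1, a gene on the opposite strand. Whether the authors counted by strand is not given in the sources used here. Tlcd1 itself had 194 normalized counts in donor B and 125 in donor A with ADAR2 WT, 164 and 145 with ADAR2 E396A, and 179 and 134 with the empty vector. Tlcd1 was highest with ADAR2 WT in donor B and lowest with it in donor A. Reads of the shared bases cannot be told apart in these counts, and their part in the Rpl23a values was not tested. Rpl23a also has 14 annotated pseudogenes named after it. The call was lost when the ADAR2 WT library of donor A (limma adjusted p 0.864) or donor B (0.391) or the donor A empty vector (0.0847) was left out, whereas the fold change stayed between 0.45 and 0.50. It was lost as well without a donor term (0.778) and without limma's mean-variance trend (0.363).

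The lowest small-subunit members with ADAR2 WT were Rps16, Rps6 and Rps19. Rps16, whose tail touches the transfer RNA in the P site, had 5716 in donor B and 7448 in donor A with ADAR2 WT, 7091 and 8125 with ADAR2 E396A, and 6819 and 8893 with the empty vector, as normalized counts. Rps6, the protein phosphorylated by S6 kinase downstream of mTOR, had 13874 in donor B and 17015 in donor A with ADAR2 WT, 15729 and 18301 with ADAR2 E396A, and 16027 and 20826 with the empty vector. Both were lowest with ADAR2 WT in each donor, although the ADAR2 WT library of donor A lay above the empty-vector library of donor B. Their fold changes did not pass (log2 -0.26, SE 0.07, adjusted p 0.157 for Rps16 and log2 -0.25, SE 0.06, adjusted p 0.145 for Rps6, limma). Rps19, the gene mutated most often in human Diamond-Blackfan anaemia, had 8944 in donor B and 11157 in donor A with ADAR2 WT, 10006 and 11961 with ADAR2 E396A, and 10434 and 13175 with the empty vector, and its fold change did not pass either (log2 -0.23, SE 0.06, adjusted p 0.145, limma).

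In the large subunit the lowest were Rpl27a, Rpl37a and Rpl37. Rpl27a had 9417 in donor B and 11655 in donor A with ADAR2 WT, 10831 and 12892 with ADAR2 E396A, and 10950.0 and 13878 with the empty vector, as normalized counts. It too was lowest with ADAR2 WT in both donors, without passing (log2 -0.23, SE 0.06, adjusted p 0.143, limma). The log2 fold changes of Rpl37a and Rpl37 were -0.21 and -0.19 (limma adjusted p 0.169 and 0.283), and Rpl37 ran from -0.29 to -0.093 with 1 library left out. At the other end, after Rpl23a, stood Rpl36a at 0.16 and Rpl21 at 0.14 in the large subunit. In the small subunit these were Rps21 at 0.20, Rps27l at 0.13 and Rps29 at 0.08, and none of the 5 passed. Rps21, a small protein on the solvent side of the subunit, had 2674 in donor B and 3514 in donor A with ADAR2 WT, 2752 and 3426 with ADAR2 E396A, and 2436 and 2926 with the empty vector. Both constructs stood above the empty vector in each donor for Rps21.

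**Figure D3:**
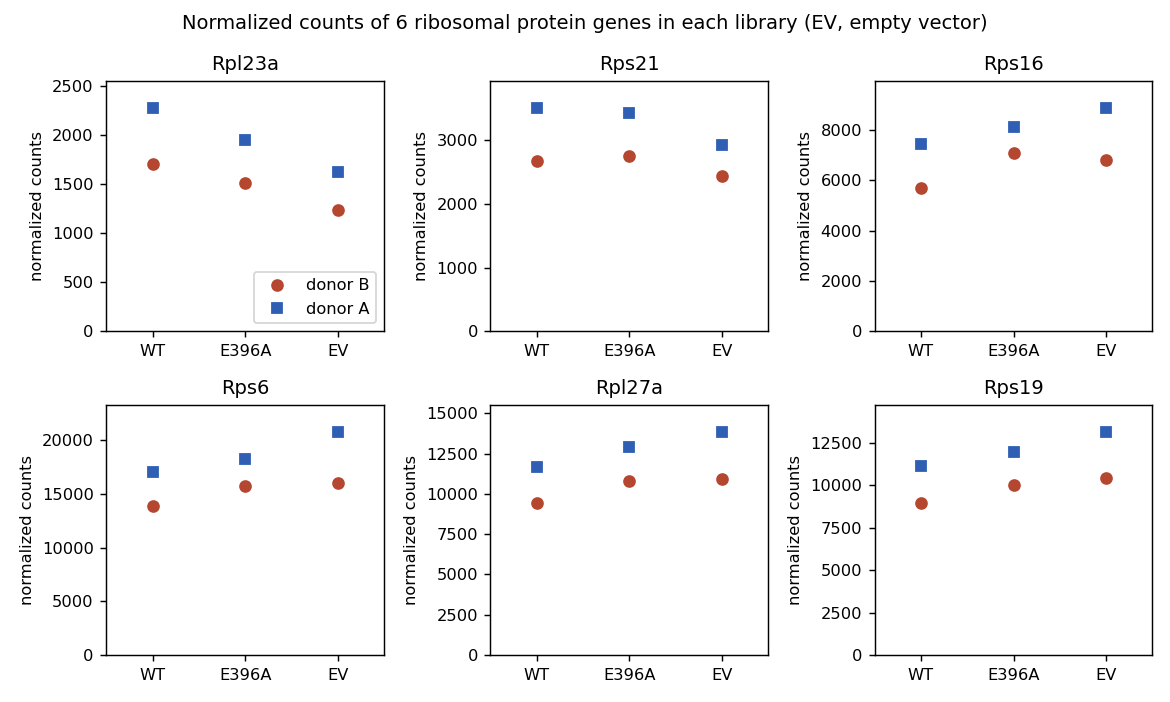
Normalized counts of Rpl23a, Rps21, Rps16, Rps6, Rpl27a and Rps19 (linear axes from 0) with ADAR2 WT, ADAR2 E396A and the empty vector (EV); each point is 1 library, circles donor B and squares donor A. Rpl23a is highest and Rps16, Rps6, Rpl27a and Rps19 are lowest with ADAR2 WT in both donors, and donor B lies below donor A within each construct.

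With the dead enzyme, 0 of 87 members passed against the empty vector in limma, edgeR and DESeq2, where 0.0134% of all genes passed in limma. At an unadjusted p below 0.05 in limma stood 2 members, against 3.89% of all genes. The log2 fold change was negative for 42 of 87, against 53.1% of all genes, and negative within both donors for 14, against 23.9%. Median log2 fold changes were 0.00 in the large and -0.01 in the small subunit, with a typical standard error of 0.06 per gene. Within donors the median over all members was 0.05 in donor B and -0.03 in donor A, so the donors differed in sign. With TMM factors 33 members were negative and with read totals 23. The highest were Rpl23a, Rpl24 (0.17, with a larger SE of 0.24) and Rpl21 (0.13) in the large subunit. In the small subunit they were Rps21 (0.20) and Rps27 (0.13). The lowest were Rpl7l1 (-0.14), Rpl41 (-0.08) and Rpl37a (-0.06), and Rps6 (-0.11), Rps19 (-0.10) and Rps2 (-0.09).

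Between active and dead enzyme, 0 of 87 members passed in limma, edgeR and DESeq2, against 0.0669% of all genes in limma. At an unadjusted p below 0.05 in limma stood 14 members, against 12.4% of all genes. The log2 fold change of ADAR2 WT over ADAR2 E396A was negative for 71 of 87, against 49.1% of all genes, and negative within both donors for 63, against 29.6%. Medians were -0.07 in the large and -0.11 in the small subunit. The lowest members with at least 50 normalized counts were Rpl24 (-0.28, SE 0.24), Rpl37 (-0.18) and Rpl27a (-0.17), and Rps16 (-0.22), Rps15a (-0.18) and Rps4x (-0.17). With 1 library left out, Rpl24 ran from -0.52 to -0.046 and Rps16 from -0.31 to -0.13. The highest were Rpl23a (0.20), Rpl7l1 (0.18) and Rpl36a (0.05), and Rps27l (0.14), Rps29 (0.04) and Rps21 (0.00). This comparison shares the ADAR2 WT libraries with the one against the empty vector, so the tilt of the members in both is not 2 separate observations.

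**Figure D4:**
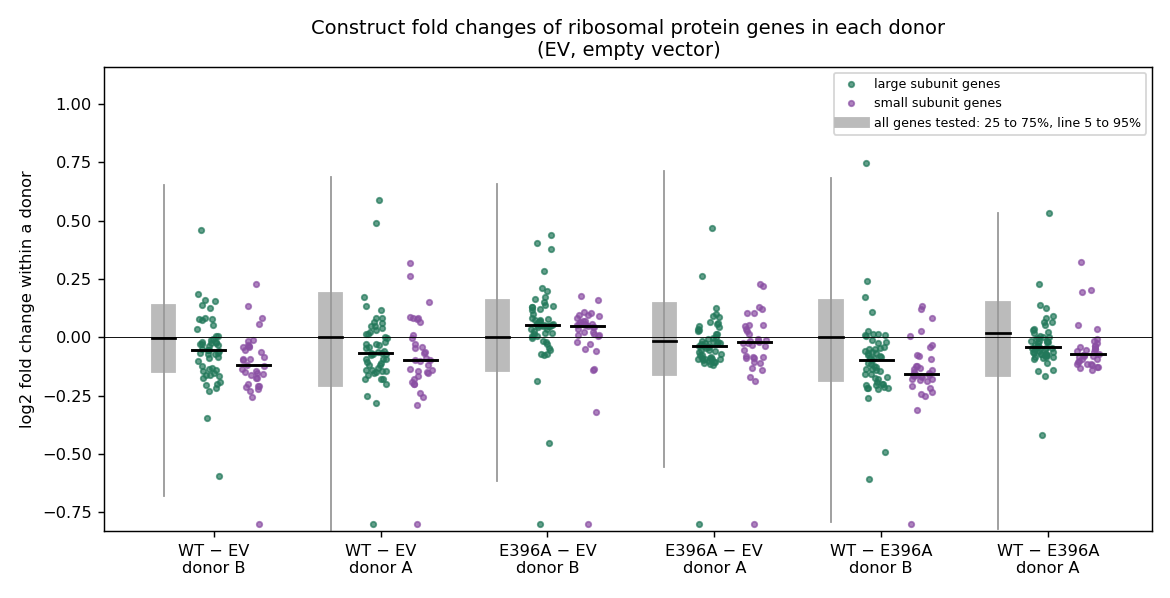
Log2 fold change within each donor of every tested large-subunit (green) and small-subunit (purple) gene for the 3 comparisons; black bars are medians, and grey boxes and lines give the spread of all genes tested. Points beyond 0.8 are drawn at 0.8 on either side. ADAR2 WT medians lie below 0 in both donors against either other group, whereas ADAR2 E396A over empty vector lies above 0 in donor B and below 0 in donor A.

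The members differed far more between the mice than between constructs. Of 87 members 83 had a lower level in donor B than in donor A. The test called 72 lower and 1 higher, Rpl39l, while 7.51% of all genes passed (3.8% lower and 3.71% higher). In the large subunit 42 of 53 fell and 1 rose, and in the small subunit 30 of 34 fell. The median log2 difference, donor B minus donor A, was -0.29 in each subunit, a level of 0.819 times that of donor A, against 0.00 over all genes. Other protein-coding genes averaging 1000 normalized counts or more had a median of 0.01 (3866 genes), and those among them with a longest transcript under 1500 bases had -0.01 (232 genes). All 3 donor B libraries lay below all 3 donor A libraries for 76 of 87 members, against 11.8% of all genes, and above them for 1, against 11.0%.

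The difference was present in each construct group. The members' median log2 difference was -0.31 with ADAR2 WT, -0.23 with ADAR2 E396A and -0.31 with the empty vector. The 72 members called lower lay from -0.40 to -0.21, a range whose upper end the threshold sets, with limma adjusted p-values from 0.00394 to 0.0449. Without the ADAR2 WT library of either donor 0 members passed in limma, when 84 genes (donor A left out) and 188 genes (donor B left out) passed in all, and without the mean-variance trend 0 of 14958 genes passed, when 76 members had an unadjusted p below 0.05. Subunit medians stayed between -0.31 and -0.27 with any library left out, and 1 mouse stands behind each donor, so mouse, culture and library preparation cannot be told apart.

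**Figure D5:**
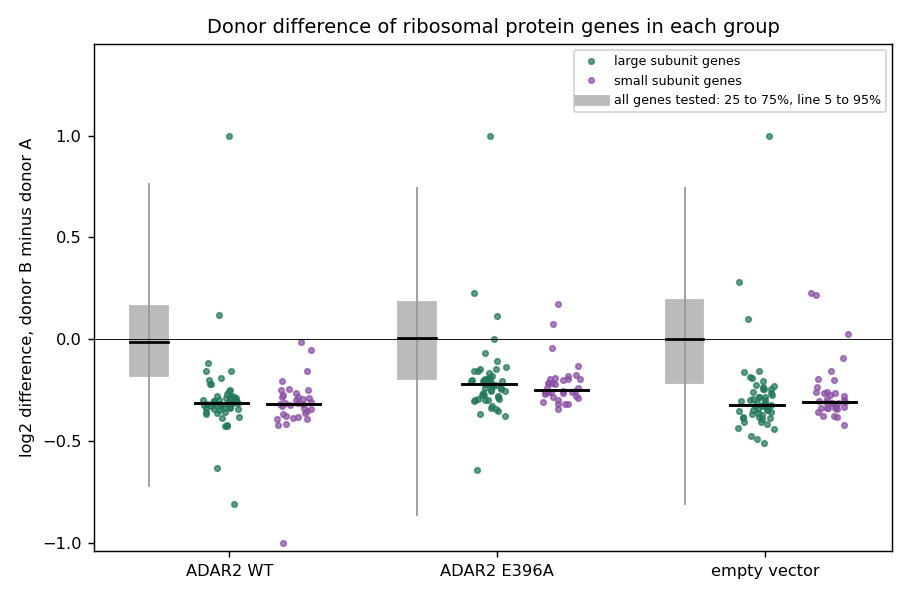
Log2 difference, donor B minus donor A, of every tested large-subunit (green) and small-subunit (purple) gene within each construct group; black bars are medians, grey boxes and lines the spread of all genes tested, and points beyond 1 are drawn at 1 on either side. Members cluster below 0 in all 3 groups while all genes centre on 0.

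Rpl36a and Rpl23a were among the lowest large-subunit genes in donor B. Rpl36a, which contacts the E site, had 5293, 5257 and 4803 normalized counts in donor B (ADAR2 WT, ADAR2 E396A and empty vector), against 7114, 6724 and 6311 in donor A (log2 -0.39, SE 0.05, adjusted p 0.00394, limma). The donors did not overlap for Rpl36a, and the 3 libraries of a donor lay close together. Rpl23a, the gene that rose with ADAR2 WT, differed between donors by a log2 of -0.39 (SE 0.06, limma adjusted p 0.00639), with the highest donor B library, ADAR2 WT, above the empty-vector library of donor A.

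Among the small-subunit genes Rps20, Rps13 and Rps15a were lowest. Rps20, which in human cells is ubiquitinated when ribosomes collide, had 8307, 9609.8 and 9271 normalized counts in donor B (ADAR2 WT, ADAR2 E396A and empty vector), against 10912, 11904 and 12052 in donor A (log2 -0.36, SE 0.05, adjusted p 0.00525, limma). All 3 donor B values lay below all 3 donor A values. Rps13 fell by 0.35 and Rps15a by 0.33 on the log2 scale (limma adjusted p 0.00747 and 0.00826). Rps15a is 1 of the genes whose start is printed above.

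Of other members of known role, Rpl22 had 10207, 10661 and 9676 normalized counts in donor B (ADAR2 WT, ADAR2 E396A and empty vector), against 13065, 13400.2 and 12519.8 in donor A (log2 -0.35, SE 0.05, adjusted p 0.00518, limma). Rps6 was lower in donor B too (log2 -0.30, SE 0.05, adjusted p 0.0138, limma). Rpl5 and Rpl11 fell by 0.34 and 0.28 on the log2 scale (limma adjusted p 0.00725 and 0.012). Rps19, Rps14 and Rps3 fell by 0.30, 0.26 and 0.32 (limma adjusted p 0.00983, 0.0218 and 0.00821). RPS14 is the gene of the human 5q deletion syndrome, and Rps3 sits at the messenger RNA entry channel. Rps27a, which encodes a fusion of ubiquitin with a ribosomal protein, fell by 0.27 (limma adjusted p 0.021).

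The 3 stalk genes were all below donor A, and 2 of them passed. Rplp1 had 19749, 20801 and 21834 normalized counts in donor B (ADAR2 WT, ADAR2 E396A and empty vector), against 25491, 26291 and 26849 in donor A and fell (log2 -0.33, SE 0.05, adjusted p 0.00726, limma). Rplp2 fell by 0.26 (limma adjusted p 0.0218). Rplp0 had 48562, 54939 and 54733 normalized counts in donor B (ADAR2 WT, ADAR2 E396A and empty vector), against 56624, 59204 and 62326 in donor A and did not pass (log2 -0.17, SE 0.05, adjusted p 0.105, limma). Its donor B values were also all below its donor A values.

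The other 13 members that did not pass were of several kinds. Rpl41 (-0.17), Rpl13a (-0.20) and the paralog Rpl22l1 (-0.23) stood below donor A with limma adjusted p-values of 0.0754, 0.0925 and 0.0811. The paralogs Rpl7l1 and Rps27l had log2 differences of 0.07 and 0.01 (limma adjusted p 0.497 and 0.974). Rps27l, a p53 target gene in human cells, had 1085, 1024 and 1125 normalized counts in donor B (ADAR2 WT, ADAR2 E396A and empty vector), against 1208, 1054 and 969 in donor A. Its donors overlapped. The remaining 8 had means of 6.71 to 184 normalized counts, among them Rpl24, Rps10 and Rpl36al. The 1 member that rose, Rpl39l, a testis-enriched paralog in mice, had 13.8, 7.84 and 21.4 normalized counts in donor B (ADAR2 WT, ADAR2 E396A and empty vector), against 1.94, 1.97 and 5.21 in donor A. Its donors did not overlap, on few reads (log2 1.92, SE 0.44, adjusted p 0.0368, limma), and its call was lost without any 1 library except those of ADAR2 E396A (limma adjusted p 0.0920 to 0.252). It was lost as well without the mean-variance trend (limma adjusted p 0.108), and DESeq2 gave Rpl39l no adjusted p.

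Hosts of snoRNAs were taken as members with a snoRNA gene inside them on the same strand. There were 30, carrying 58 snoRNA genes. In donor B 29 of the 30 hosts were called lower, with a median log2 difference of -0.30. Of 57 tested members without a snoRNA 43 were called lower, with a median of -0.28, against 3.8% of all genes called lower. The members without a snoRNA include low-count genes such as Rpl9-ps6 (mean 184 normalized counts) and Rpl36a-ps1 (45.3), so these counts are not like for like. Against the empty vector, hosts had a median of -0.08 with ADAR2 WT and 0.00 with ADAR2 E396A, and members without a snoRNA -0.08 and 0.00.

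Ribosomal proteins under other names and TOP-containing translation factors differed between donors in the same direction. Rack1, the scaffold on the small subunit, and Fau, which encodes a fusion with a ubiquitin-like protein, both passed and were lower (log2 -0.26 and -0.25, limma adjusted p 0.0236 and 0.0498). Of 14 translation and RNA-binding factors whose transcripts carry a TOP motif, 9 fell, none rose and all 14 were below 0, with a median of -0.24. Among all genes tested 3.8% were called lower and 50.3% were below 0. Eef1a1, which carries aminoacyl-tRNA to the ribosome, had 105424, 132482 and 117194 normalized counts in donor B (ADAR2 WT, ADAR2 E396A and empty vector), against 139869, 151336 and 163333 in donor A (log2 -0.36, SE 0.07, limma adjusted p 0.0213). Eef2, the translocase, fell by 0.32 and Pabpc1, the poly(A)-binding protein, by 0.25 (limma adjusted p 0.0232 and 0.0358). Eif4b fell by 0.34 (limma adjusted p 0.00727).

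Lists of other ribosome genes did not show a difference of this size. Of all genes 3.8% were called lower and 3.71% higher. Of 58 genes of polymerase I transcription and rRNA processing 1 fell, Npm1 (log2 -0.25), and their median was -0.04. Of 33 genes of large-subunit assembly and export 1 fell, Nsa2 (-0.33), and of 12 tested chaperones and importers 1 fell, Ipo7 (-0.22), with medians of -0.04 each. The donor difference changed sign between groups in the polymerase I and assembly lists. Polymerase I medians were -0.09 with ADAR2 WT, -0.15 with ADAR2 E396A and 0.15 with the empty vector. In the same groups the assembly medians were -0.07, -0.13 and 0.15. Of 32 initiation factors outside the TOP list 1 rose, Eif4g2 (0.27), with a median of 0.01. None of 25 mTOR, TOP and Myc regulators, 15 ribosome quality control genes or 77 mitochondrial ribosomal protein genes passed, with medians of 0.02, 0.00 and -0.04.

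Against the empty vector no gene of these lists passed in limma with ADAR2 WT, when 0.816% of all genes passed, or with ADAR2 E396A, when 0.0134% passed. With shares this low, lists of this size could hold no call whether or not they differ from other genes. With ADAR2 WT the median log2 fold change was -0.10 over the 14 TOP factors, of which 11 were negative, 0.11 over the polymerase I and rRNA processing list, 0.12 over the assembly list and 0.06 over the mitochondrial ribosomal protein genes. Within donors the TOP factors had -0.09 in donor B and -0.10 in donor A, whereas the other 3 lists had medians near 0 in donor B (-0.0052, 0.01 and -0.0062) and above 0 in donor A (0.20, 0.23 and 0.11). With ADAR2 E396A the medians were -0.01, -0.03, -0.01 and -0.04, and the donors differed in sign in each list. The TOP factors had 0.04 in donor B and -0.06 in donor A, the polymerase I list -0.17 and 0.11, the assembly list -0.15 and 0.15, and the mitochondrial ribosomal protein genes -0.08 and 0.04.

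Other measures moved with the donors too. Il17a, the signature cytokine of Th17 cells, had 17878, 18145 and 9279 normalized counts in donor B (ADAR2 WT, ADAR2 E396A and empty vector), against 6602, 2616 and 2437 in donor A (log2 2.05, SE 0.20, limma adjusted p 0.00146). Il17f and Ccr6 rose as well (log2 1.58 and 1.15), and the other 5 of 8 Th17 and CD4 markers did not pass. The summed Th17 markers were 64291, 82214 and 52828 in donor B (ADAR2 WT, ADAR2 E396A and empty vector), against 42145, 34583 and 41117 in donor A. The part of these markers in the members' difference was not tested. Mitochondrially encoded reads took 0.443, 0.404 and 0.317% in donor B (ADAR2 WT, ADAR2 E396A and empty vector), against 0.496, 0.462 and 0.377% in donor A. This share was lower in donor B within each construct, but the donors overlapped. In both donors it was highest with ADAR2 WT and lowest with the empty vector.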

How the data were processed

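Libraries of 6 cultures were made from RNA depleted of ribosomal RNA (NovaSeq S4, per the labels' protocols). The submitters' processing notes name STAR 2.6.1a, featureCounts, DESeq2 1.18.1 and the mm10 build. Neither annotation nor strand setting is given in the sources used here. There are 2 tables, which the authors deposited, 1 per construct, and per the file headers each holds DESeq2's log2 fold change with its standard error, the Wald statistic (a score), the p-value and the adjusted p-value. Beside these stand 4 columns of normalized counts, which the authors made by dividing each library's reads by 1 factor and which are treated as a signal. Those log2 fold changes are of empty vector over construct, whereas every fold change computed here is of construct over empty vector.

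Reads were recovered from the steps of the normalized counts, and 100% of values came out whole within 0.001 of a read. Libraries found in both tables were assigned to the empty vector, and each other library to the construct in its table's name. Columns carry no donor label, and the numbers pair the samples only through the design, which compares cells of the same donor. DESeq2 was refitted under each pairing, and the pairing that returned the authors' Wald statistics was kept (largest difference 8.07e-04 over 28601 genes for ADAR2 WT and 1.14e-03 over 28872 for ADAR2 E396A, against 13.8 and 6.08 with donors crossed). Replicates are thus separate mice, but each donor is 1 mouse.

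Counts were scaled over 6 libraries by median-of-ratios factors and filtered with edgeR's filterByExpr, which left 14958 genes. The test was limma 3.58.1 (R 4.3.3, mean-variance trend) on log2(normalized count + 1) with group and donor, Benjamini-Hochberg adjusted over all genes at 0.05 and two-sided. It was tested on simulated counts, where it recovered most changed genes but more than 0.05 of its calls were unchanged genes. Fold changes of log2(normalized count + 1) understate changes of low genes. The results were recomputed with edgeR 4.0.16 and DESeq2 1.42.0 on the recovered reads, with other scalings, filters and pseudocounts, with the 4 libraries alone, with no donor term, with each library left out and, added after the data were seen, without the trend and with edgeR and TMM. GENCODE vM21 gave symbols, exon lengths and neighbours. Wilson intervals (95%) and the floor of 3 reads cover counting error only. Members named were those passing, the 3 highest and 3 lowest per comparison and subunit with a mean of 50 or more, the 5 highest levels, paralogs and members of known role. The members and lists were chosen with earlier results of these data known. The sequences shown, Gm26917, Tlcd1 and the genes near the threshold were chosen after their values were seen. A few genes that this rule would name are not reported here.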

Additional observations from a re-analysis of the deposited data

How the results depend on the processing

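With ADAR2 WT against the empty vector, Rpl23a was the 1 member called by limma, by edgeR and DESeq2 and under the other scalings, filters and pseudocounts. No member was called without the replicate block (0, when 2 genes passed in all) or without the mean-variance trend (0), and 8 were called from the 4 libraries alone, when 8.57% of all genes passed. Leaving out 1 library gave 0 to 8, when 0.00669 to 8.22% of all genes passed. The cause was not tested. The subunit medians were -0.036 (large) and -0.083 (small) with read totals as factors, and -0.080 to -0.038 and -0.130 to -0.086 with 1 library left out. With ADAR2 E396A against the empty vector the large-subunit median ran from -0.035 to 0.052 and the small-subunit median from -0.020 to 0.043 with 1 library left out. Between ADAR2 WT and ADAR2 E396A the large-subunit median ran from -0.102 to -0.041 and the small-subunit median from -0.146 to -0.079 with 1 library left out. The replicate block, the donor, otherwise changed no call of a member in the comparisons of constructs.

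Between donors 68 to 73 members passed by edgeR, DESeq2, other scalings, filters and pseudocounts, when 3.78 to 9.1% of all genes passed. All of them were among the 73. None passed without the mean-variance trend (0), when 0 of all genes passed. Leaving out 1 library gave 0 to 71, when 0.562 to 11.6% of all genes passed.

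Direction reversed with 1 library left out for genes that did not pass: Rps27l with ADAR2 WT against the empty vector (-0.025 to 0.292), Rpl24 with ADAR2 E396A against the empty vector (-0.069 to 0.406) and Rps21 between ADAR2 WT and ADAR2 E396A (-0.054 to 0.049). Between donors this held for Rpl24 (-0.250 to 0.019), Rps27l (-0.099 to 0.089) and Rps10 (-0.188 to 0.088). With the longest transcript as length, the median level per kilobase was 8702 in the large and 9054 in the small subunit, against 5093 and 5535 with all exons.

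Depth limits the genes of few reads: Rpl39l, Rps12-ps3, Rps27rt and the 4 untested genes allow no firm statement.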
